A study of Mus musculus with 32 samples.

Results

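In RJ2 mice, 406 of 10121 PRDM9 ChIP-seq peaks (4.01%) lay in H3K4me3 that both strains share and off the mapped centers of RJ2 double-strand breaks. They were selected on the deposited lists of positions alone. Each is an RJ2 PRDM9 interval that touches the central 400 bp of no RJ2 DMC1 interval, that is covered over at least 10% of its length by common H3K4me3, and that overlaps no peak of the Prdm9 KO. The absence of DMC1, the presence of common H3K4me3 and the absence of Prdm9 KO signal thus chose these peaks and are not results about them. They are named class 2A here, beside class 2B (neither DMC1 nor H3K4me3), class 1a (DMC1 with strain-specific H3K4me3), class 1b (DMC1 with common H3K4me3), class 1c (DMC1 without H3K4me3) and class 1d (strain-specific H3K4me3 without DMC1).

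PRDM9 was mapped in whole testes of mice at 13 days of age, with testes of 10 mice pooled for each ChIP and 2 replicates in RJ2. RJ2 is the congenic B10.MOLSGR(A)-(D17Mit58-D17Jcs11)/Bdm, a C57BL/10 mouse whose introduced segment of chromosome 17 brings the allele Prdm9 Cst, and B6 is C57BL/6JOlaHsd, which carries Prdm9 Dom2. DMC1 was mapped in whole testes at 5 weeks in 2 replicates per strain, and H3K4me3 in elutriated pachytene cells of adults in 1 library per strain. The control without PRDM9 is 1 library of B6;129P2-Prdm9tm1Ymat/J testes (Prdm9 KO), and PRDM9 was also mapped in 2 libraries of Spo11tm1M testes (Spo11 KO), which make no breaks and carry Prdm9 Dom2. All lists pool the replicates and hold intervals on mm9 without a score or a read count, so peaks and not mice are the units of every value, and the depth behind a single peak is unknown. RJ2 mice without PRDM9 were not analyzed here. The paper calls the Prdm9 KO a B6 mouse, although its strain name also holds 129P2.

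PRDM9 is a histone methyltransferase of early meiotic prophase that binds DNA through an array of zinc fingers and trimethylates H3K4 on nearby nucleosomes. The sites that it marks are used by SPO11 for double-strand breaks, whose single-stranded ends are coated by the recombinase DMC1. H3K4me3 is also deposited at active promoters by other methyltransferases, without PRDM9, and it is this shared fraction that the common list collects.

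The tissue behind the common H3K4me3 list was first checked at defining genes of testis cell types. Starts of 9 of 11 germ cell markers lay in common H3K4me3, against 0 of 6 Sertoli cell markers, 0 of 8 Leydig and peritubular markers, 0 of 6 blood and macrophage markers and 0 of 6 markers of other tissues. The marks at which these PRDM9 peaks lie were therefore measured in cells with germ cell promoters, whereas PRDM9 itself was precipitated from whole testis at a younger age.

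The motif of PRDM9 Cst was learned from RJ2 class 1 peaks with DMC1 on odd-numbered chromosomes, as a matrix of 20 bp whose letters at a frequency of at least 60% are NCTNGGNNTGTGNCNNTTNN, with N for any other position. A hit is a window score that 5% of flanking windows, 5 kb from those peaks, reach or pass (10.5 bits), on either strand. The class 2A peaks with the highest scores are shown with 40 bp on each side, on the strand of the hit and with the hit in capitals, because they carry the PRDM9 Cst motif while lacking DMC1. Repin1 encodes a zinc finger protein of replication, Gemin7 a subunit of the SMN complex, Eif3h a translation initiation factor subunit and Rfk riboflavin kinase, and Gm11894 is a pseudogene. Each peak is named by the gene with the nearest annotated start, which for Gm11894 is 13237 bp away.

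Repin1, chr6:48543505-48543604, minus strand: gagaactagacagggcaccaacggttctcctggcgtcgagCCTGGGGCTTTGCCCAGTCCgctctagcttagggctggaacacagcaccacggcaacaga
Gm11894, chr4:25359719-25359818, minus strand: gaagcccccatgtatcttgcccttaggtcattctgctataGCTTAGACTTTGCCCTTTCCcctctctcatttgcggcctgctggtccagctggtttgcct
Gemin7, chr7:20158972-20159071, minus strand: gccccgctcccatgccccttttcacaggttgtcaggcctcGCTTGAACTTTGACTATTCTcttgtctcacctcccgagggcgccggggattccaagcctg
Eif3h, chr15:51696878-51696977, plus strand: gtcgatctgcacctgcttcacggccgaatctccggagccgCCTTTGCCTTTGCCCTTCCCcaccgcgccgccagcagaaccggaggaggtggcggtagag
Rfk, chr19:17469117-17469216, plus strand: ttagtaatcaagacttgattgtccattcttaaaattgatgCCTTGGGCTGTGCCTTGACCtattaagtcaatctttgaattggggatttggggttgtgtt

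Among peaks that stand first in the list, are the widest, lie at listed genes or lie beside a B6 class 2A peak, those of Nuf2 and Wif1 held a hit outside untranslated exons. The Nuf2 peak stands first of all class 2A peaks in the deposited list, and the Wif1 peak shares its H3K4me3 interval with a B6 class 2A peak. The Wif1 peak is intergenic and lies 42226 bp from the start of Wif1. Nuf2 encodes a kinetochore protein of the NDC80 complex and Wif1 a secreted Wnt inhibitor.

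Nuf2, chr1:171461740-171461839, plus strand: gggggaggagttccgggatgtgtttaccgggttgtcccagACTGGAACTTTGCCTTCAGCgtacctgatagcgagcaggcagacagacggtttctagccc
Wif1, chr10:120562979-120563078, plus strand: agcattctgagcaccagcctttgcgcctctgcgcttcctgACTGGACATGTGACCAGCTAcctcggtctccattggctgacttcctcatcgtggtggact

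For comparison, the first 3 class 1 peaks with DMC1 on even-numbered chromosomes that hold a hit are printed in the same way. They score between 16.4 and 18.7 bits, within the range of the class 2A hits (10.6 to 20.5 bits).

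Gm9946, chr6:117549507-117549606, plus strand: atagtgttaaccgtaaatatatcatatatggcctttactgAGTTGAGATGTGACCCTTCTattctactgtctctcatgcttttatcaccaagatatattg
Slc15a1, chr14:121881581-121881680, plus strand: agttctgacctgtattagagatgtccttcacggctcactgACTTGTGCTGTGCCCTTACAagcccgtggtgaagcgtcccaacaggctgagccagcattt
Gm17192, chr16:61894292-61894391, plus strand: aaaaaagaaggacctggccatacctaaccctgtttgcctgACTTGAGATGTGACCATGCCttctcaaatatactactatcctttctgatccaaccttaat

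The core consensus of the insulator protein CTCF, in capitals, was found in the central 200 bp of 3 class 2A peaks. All 3 lay over 1 kb from an annotated start, at 5142 bp (Gm10359), 1512 bp (Klc3) and 192677 bp (Fndc3a).

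Gm10359, chr5:106297810-106297901, minus strand: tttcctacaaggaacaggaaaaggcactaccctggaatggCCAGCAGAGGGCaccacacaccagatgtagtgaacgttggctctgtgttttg
Klc3, chr7:19990862-19990953, plus strand: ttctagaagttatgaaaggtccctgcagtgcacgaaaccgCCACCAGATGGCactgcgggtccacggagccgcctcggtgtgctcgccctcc
Fndc3a, chr14:72771875-72771966, minus strand: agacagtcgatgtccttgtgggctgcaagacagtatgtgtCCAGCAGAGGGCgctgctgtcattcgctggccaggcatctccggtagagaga

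Of the promoter peaks in these same groups without a PRDM9 Cst hit, that of Uba6 held a GC box in a window of 150 bp free of untranslated exons. It has 8 CpG dinucleotides in this window, and the GC box is in capitals.

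Uba6, chr5:86601209-86601358, plus strand: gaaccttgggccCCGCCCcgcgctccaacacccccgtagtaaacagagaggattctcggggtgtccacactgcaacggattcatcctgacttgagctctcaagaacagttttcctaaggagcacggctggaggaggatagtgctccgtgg

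Class 2A peaks were a little wider than class 2B peaks, and their H3K4me3 intervals had a larger median width than all common ones. Their median width was 513 bp, between 250 and 3552 bp, against 461 bp in class 2B, 625 bp in class 1b and 595 bp in class 1a. Common H3K4me3 covered the whole interval of 253 peaks (62.3%), and 367 (90.4%) were centered inside their H3K4me3 interval. These host intervals had a median width of 1789 bp, against 1097 bp over all 41014 common intervals, of which 431 (1.05%) overlapped a class 2A peak. A longer interval can meet more peaks, and the widths were not corrected for this. Peak centers lay a median of 378 bp from the host's center, and no expected distance was computed. Since the rule asks for this cover, these values are a description. A further 32 RJ2 peaks met the rule for DMC1 and H3K4me3 but overlapped a Prdm9 KO peak and were left out, of which 25 were at promoters and 3 held a PRDM9 Cst hit. In all, 252 of the 10121 deposited RJ2 peaks (2.49%) overlapped a Prdm9 KO peak. Shares over all RJ2 peaks include them, and without them class 2A is 4.11% of 9869 peaks, 9.53% are at promoters, 1.78% are CpG-rich and 41.8% hold a PRDM9 Cst hit.

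Just inside the threshold on H3K4me3 cover were peaks near Solh, Gm16019 and Bdh1, covered over 10.4%, 10.5% and 11.1%. Just outside were peaks at 7SK, Dysf and Map1lc3b with 8.55%, 7.87% and 7.34%. For DMC1, the nearest peak inside the class, in an intron of Pfkfb4, lay 564 bp from the central part of a DMC1 interval, followed by those of Adam11 and Napb at 1033 and 1204 bp. The nearest outside, near Sh3bp5l, C2cd4b and Cnksr3, overlapped such a central part by 7, 29 and 66 bp and fell in class 1b.

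Promoters made up most of the class. Of the 406 peaks, 271 (66.7%, exact interval 61.9 to 71.3%) were centered within 1 kb of an annotated transcription start, against 9.82% of all RJ2 PRDM9 peaks. Class 1b meets the same limit on cover by common H3K4me3, although the cover itself was not matched. There DMC1 is present, and 54 of 268 peaks (20.1%) lay at a start. With cover of at least 50% in both classes, the counts were 255 of 369 in class 2A and 46 of 220 in class 1b. At the limit of 10%, the difference was 46.6 percentage points (interval 39.6 to 52.8, Fisher's exact test, two-sided, adjusted p = 9.45e-33). All p-values of this kind are adjusted over 7 tests and treat peaks as independent, although neighboring peaks can share a promoter. Over all 40991 windows at the centers of common H3K4me3 intervals, 14368 lay within 1 kb of a start. This share is below that of class 2A and above that of class 1b.

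**Figure D1:**
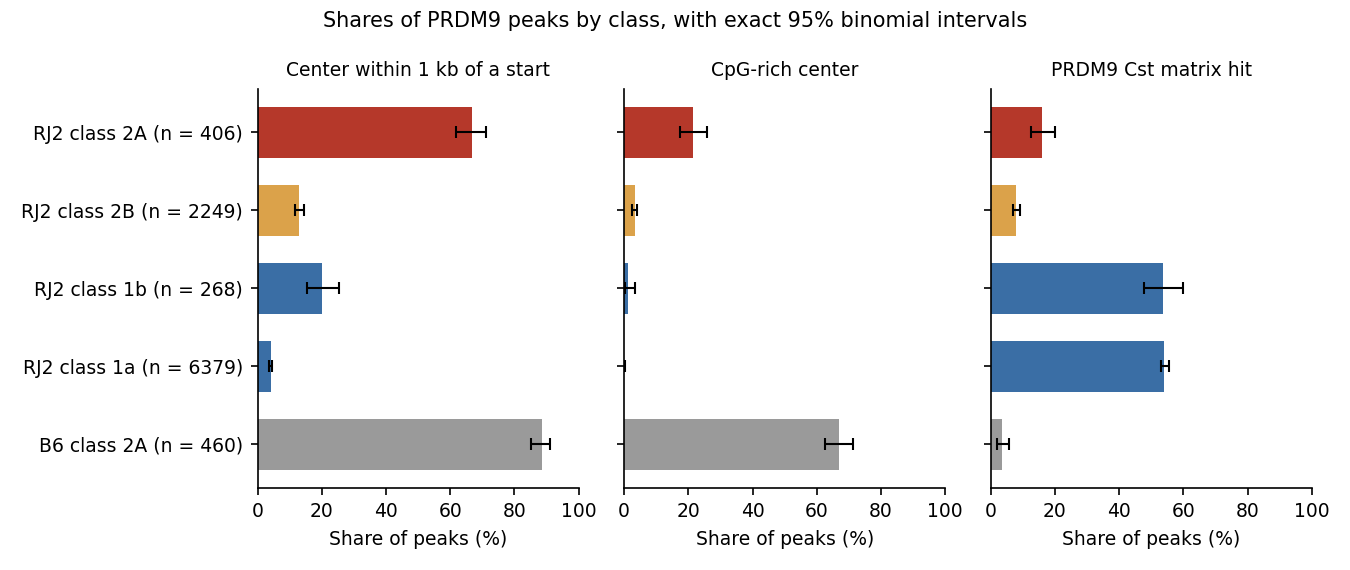
Share of peaks in percent (horizontal axis) that were centered within 1 kb of an annotated start, had a CpG-rich center or held a PRDM9 Cst matrix hit in the central 200 bp, in each class (bars, with exact 95% binomial intervals). RJ2 class 2A stands at 66.7%, 21.4% and 16.0%, above class 1b in the first pair of panels and below it in the third, where class 1b reaches 53.7%.

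The centers of promoter peaks were spread around the start. Relative to the nearest start their centers ranged from 948 bp upstream to 994 bp downstream, with a median 75 bp downstream and quartiles at 183 bp upstream and 349 bp downstream. The start lay inside the PRDM9 interval at 127 of 271 promoter peaks (46.9%). Their median distance to it was 272 bp. With the distal peaks included, the median was 514 bp over all RJ2 class 2A peaks and 89 bp over all B6 class 2A peaks, a difference that was not tested. The nearest start belonged to a protein-coding gene at 251 peaks, to a lincRNA at 12 and to another kind of gene at 8. Starts on both strands were found within 1 kb of 55 promoter peaks (20.3%, interval 15.7 to 25.6%), against 30.3% of the 24422 start positions inside common H3K4me3.

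**Figure D2:**
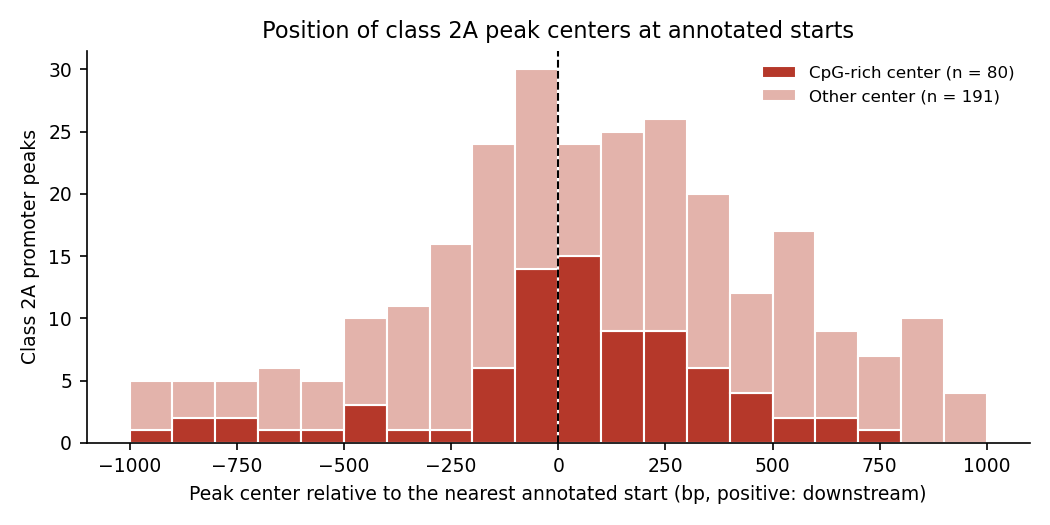
Number of class 2A promoter peaks (vertical axis) by the position of the peak center relative to the nearest annotated start in bp (horizontal axis, bins of 100 bp, positive values downstream), split by CpG-rich centers (80) and others (191). Centers spread on both sides of the start, with 153 downstream of it and 118 at or upstream of it.

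In total 297 of 22208 protein-coding genes (1.34%) had a start within 1 kb of a class 2A peak. The rule asks for common H3K4me3, which lay at a start of 8916 of these genes. It lay at 67 of the 74 genes of the general transcription machinery. The lists of genes examined were few and small, and 10 of their genes were hit. Among genes of the general transcription machinery 4 of 74 (5.41%) had a peak, namely Polr2i and Polr2f, which encode RNA polymerase II subunits, and Med12 and Med31, which encode subunits of Mediator. The Polr2i peak (chr7:31017276-31017991, 716 bp) was centered 12 bp downstream of the start in an exon, had a CpG-rich center and lay within 1 kb of a start on the other strand. The Med12 peak (chrX:98469279-98469928, 650 bp) was centered 5 bp downstream of the start, also in an exon and CpG-rich. Both stood among the first 5060 positions of the list, while Med31 and Polr2f were at positions 6821 and 8014 of 10121.

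Other genes of cell maintenance carried 1 or 2 peaks per list. Psma4, a proteasome subunit, and Uba6, a ubiquitin-activating enzyme, were the 2 of 59 genes of the ubiquitin and proteasome list (3.39%). Mcm6, of the replicative helicase, was the only one of 48 cell cycle genes, Srsf7 the only one of 65 splicing factors, Setd8, a histone H4 methyltransferase, the only one of 57 genes of histone methylation, and Prdm11 the only one of 17 PRDM family genes. Of these, Srsf7 and Mcm6 had CpG-rich centers, 25 and 314 bp downstream of the start. None of the 10 peaks held a PRDM9 Cst hit, and their highest score was 9.35 bits, at Setd8. There were 0 peaks at 49 meiosis genes, 59 DNA repair genes, 24 cohesin and chromosome structure genes and 78 ribosomal protein genes, of which 75 had a start in common H3K4me3. Common H3K4me3 lay at a start of 51 of the 59 ubiquitin and proteasome genes, 35 of 48 cell cycle genes and 57 of 65 splicing factors. For histone methylation it was 39 of 57 and for the PRDM family 6 of 17, against 8916 of all 22208 genes. The shares per list thus have no like base in the 1.34% of all protein-coding genes, and the counts of peaks were not tested against it. In B6 class 2A, 21 of the same 78 ribosomal protein genes had a peak (26.9%), against 484 of all 22208 protein-coding genes (2.18%).

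The centers of class 2A peaks were GC-rich. The median GC content of the central 200 bp was 54.5%, with a ratio of observed to expected CpG of 0.489, against a GC content of 47.0% and a ratio of 0.201 in class 1b and a ratio of 0.164 in class 2B. Counting as CpG-rich a center with at least 55% GC and a ratio of at least 0.65, 87 peaks passed (21.4%, interval 17.5 to 25.7%), against 1.93% of all RJ2 PRDM9 peaks and 3 of 268 class 1b peaks (1.12%). The difference of 20.3 points (interval 16.0 to 24.6) passed Fisher's exact test (two-sided, adjusted p = 4.84e-17). Of the 87 CpG-rich peaks, 80 were at promoters. The CpG-rich share at class 2A promoters was 29.5% (interval 24.2 to 35.3%), below the 43.4% of windows at 22347 protein-coding gene starts and above the 17.7% of common H3K4me3 centers near a start. At promoters of class 2B and class 1b it was 18.8% (55 of 293) and 3.70% (2 of 54).

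A minority of class 2A peaks held the PRDM9 Cst motif. Of the 406 peaks, 65 (16.0%, interval 12.6 to 19.9%) had a hit in the central 200 bp, against 40.9% of all RJ2 PRDM9 peaks. On even-numbered chromosomes, which were not used to learn the matrix, the share was 28 of 168 in class 2A (16.7%) and 1715 of 3176 in class 1 with DMC1 (54.0%). The difference was -37.3 points (interval -42.5 to -30.7, Fisher's exact test, two-sided, adjusted p = 9.76e-22). Against class 2B, with 90 of 1045 peaks (8.61%), the class 2A share was higher by 8.05 points (interval 2.84 to 14.6, Fisher's exact test, two-sided, adjusted p = 0.00498). Among the first 5060 peaks of the list alone, this comparison rests on 10 of 47 and 17 of 191 peaks and did not pass the threshold (12.4 points, Fisher's exact test, adjusted p = 0.0631), while the adjusted p under the other alternatives lay between 0.00257 and 0.00514.

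The same score was reached by 4.56% of windows at protein-coding gene starts (interval 4.29 to 4.85%) and by 5.17% of centers of common H3K4me3 intervals (interval 4.95 to 5.39%). Class 2A promoters, at 14.4% (interval 10.4 to 19.1%), thus lay above all starts and above the 4.74% of common H3K4me3 centers near a start, and their interval does not reach either value. Class 1b promoters reached 40.7% (22 of 54) and class 2B promoters 8.53% (25 of 293, interval 5.60 to 12.3%). The class 2B interval overlaps that of class 2A promoters, and the shares at promoters were not tested between classes. In CpG-rich class 2A peaks 9 of 87 held a hit (10.3%, interval 4.84 to 18.7%) and in the others 56 of 319 (17.6%, interval 13.5 to 22.2%). Peaks with a hit were spread along the list, with 24 of 134 among its first 5060 positions (17.9%) and 41 of 272 among the others (15.1%).

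The hits gathered at the peak center. In class 2A, 6.16% of peaks had a hit in the 50 bp just to the right of the center and 4.19% in the 50 bp just to the left, against 1.72% in the outermost bin on each side, at 450 to 500 bp. In class 1 with DMC1 on even chromosomes the central bins stood at 19.4% and 19.3% and the outermost at 1.57% and 1.39%. In class 2B the central bins stood at 2.18% and 2.53%, near the 1.69% and 1.91% of the outermost. Class 2A promoters alone went from 5.54% and 3.32% at the center to 1.85% and 1.48% at the edges. The scores of the class 2A hits had a median of 13.0 bits, against 14.7 bits in class 1 and 12.5 bits in class 2B. The profiles were not tested.

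**Figure D3:**
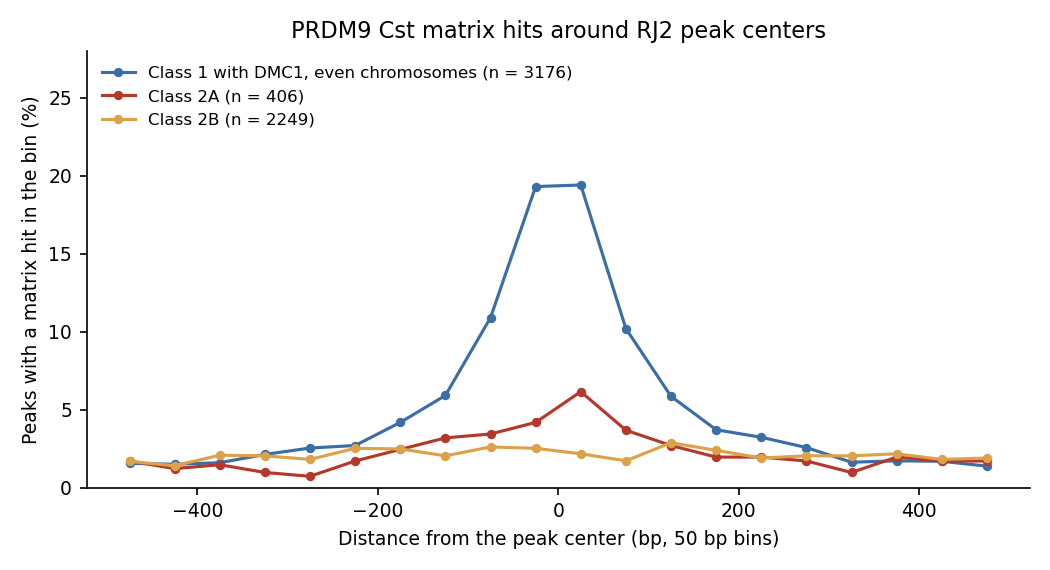
Share of RJ2 peaks in percent with a PRDM9 Cst matrix hit in each bin of 50 bp (vertical axis) by distance from the peak center in bp (horizontal axis), for class 1 with DMC1 on even chromosomes, class 2A and class 2B (lines with points). Class 2A rises to 6.16% beside the center, class 1 to 19.4%, and class 2B stays between 1.42% and 2.89%.

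Promoter and distal class 2A peaks were compared for both motifs. The 135 peaks over 1 kb from a start lay a median of 7489 bp from one, and 76 (56.3%) were within 10 kb. They were intergenic in 67 cases, intronic in 56 and exonic in 12. A PRDM9 Cst hit was found at 39 of 271 promoter peaks (14.4%) and 26 of 135 distal peaks (19.3%), a difference of -4.87 points whose interval runs from -13.2 to 2.55 (Fisher's exact test, two-sided, adjusted p = 0.292). Its sign and its call changed with the window, the score and the definition of a promoter.

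Exact matches to the CTCF core consensus were rare. They were found in 3 class 2A peaks (0.739%, interval 0.153 to 2.14%), against 0.326% of all RJ2 PRDM9 peaks and 13 of 2249 class 2B peaks (0.578%). The difference from class 2B was 0.161 points (interval -0.475 to 1.59, Fisher's exact test, two-sided, adjusted p = 0.725). The paper scanned with motif matrices and reported the CTCF motif in a much larger share of RJ2 class 2B peaks. Exact cores thus miss sites that such a scan finds, and their counts do not measure how common CTCF sites are. With 1 mismatch allowed in the core, an alternative chosen after seeing the data, the counts were 11 of 406 (2.71%) and 82 of 2249 (3.65%), and the difference turned to -0.937 points. With 0 of 271 promoter peaks and 3 of 135 distal peaks (2.22%), the difference between promoter and distal peaks was -2.22 points (interval -6.33 to -0.198, Fisher's exact test, two-sided, adjusted p = 0.0507), and it passed the threshold under 4 of 9 alternatives. The peaks are those of Gm10359 (chr5:106297676-106298135), Klc3 (chr7:19990710-19991219) and Fndc3a (chr14:72771623-72772073), and that of Gm10359 also held a PRDM9 Cst hit of 12.2 bits. The core was found in 0.331% of protein-coding gene starts and 0.251% of common H3K4me3 centers.

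Words of promoter factors were counted on both strands in the same windows of 200 bp. No word contains another, but those of GC box, ETS, NRF1, CRE, E box and ZBTB33 contain CG and so follow the CpG content of a window. The GC box of SP1 and KLF factors (GGGCGG) was in 76 class 2A peaks (18.7%, interval 15.0 to 22.9%), against 8934 of 22347 protein-coding gene starts and 8.44% of common H3K4me3 centers. The ETS site (CCGGAAG) was in 18 (4.43%, against 9.38% of starts and 3.34% of H3K4me3 centers), and the CCAAT box of NF-Y (CCAAT) in 80 (19.7%, against 27.3% and 24.5%). The E box of USF and MAX (CACGTG) was in 4.68% (5.55% and 3.31%), the MYB site (CAACTG) in 9.11% (8.43% and 10.4%), the RFX site (GTTGCC) in 8.87% (8.56% and 7.22%) and the TATA box (TATAAA) in 5.17% (8.18% and 11.6%). These shares mix promoter and distal windows in unlike parts. At class 2A promoters the GC box was in 22.1%, against 16.0% of common H3K4me3 centers near a start. There the ETS site was in 4.80% against 4.70%, the CCAAT box in 18.1% against 23.0% and the TATA box in 4.80% against 8.32%.

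The longer words were found in few class 2A peaks. The YY1 site (AAGATGGC) was in 8 peaks (1.97%, against 3.03% of starts and 1.64% of H3K4me3 centers), the CRE of CREB and CREM (TGACGTCA) in 4 (0.985%, against 1.93% and 0.373%) and the NRF1 site (GCGCATGCG) in 2 (0.493%, against 1.70% and 0.383%). The ZBTB33 site (TCTCGCGAG) was in 1 peak, at Crtc1, which encodes a CREB coactivator (0.246%, interval 0.00624 to 1.36%, against 0.689% of starts and 0.0829% of H3K4me3 centers). In B6 class 2A the same word was in 115 of 460 peaks (interval 21.1 to 29.2%), the GC box in 40.9% and the ETS site in 13.5%. The lists of both strains come from separate libraries and thresholds, and the strains were not tested against each other. The words occur in promoters of many kinds, and their presence does not place a factor there.

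**Figure D4:**
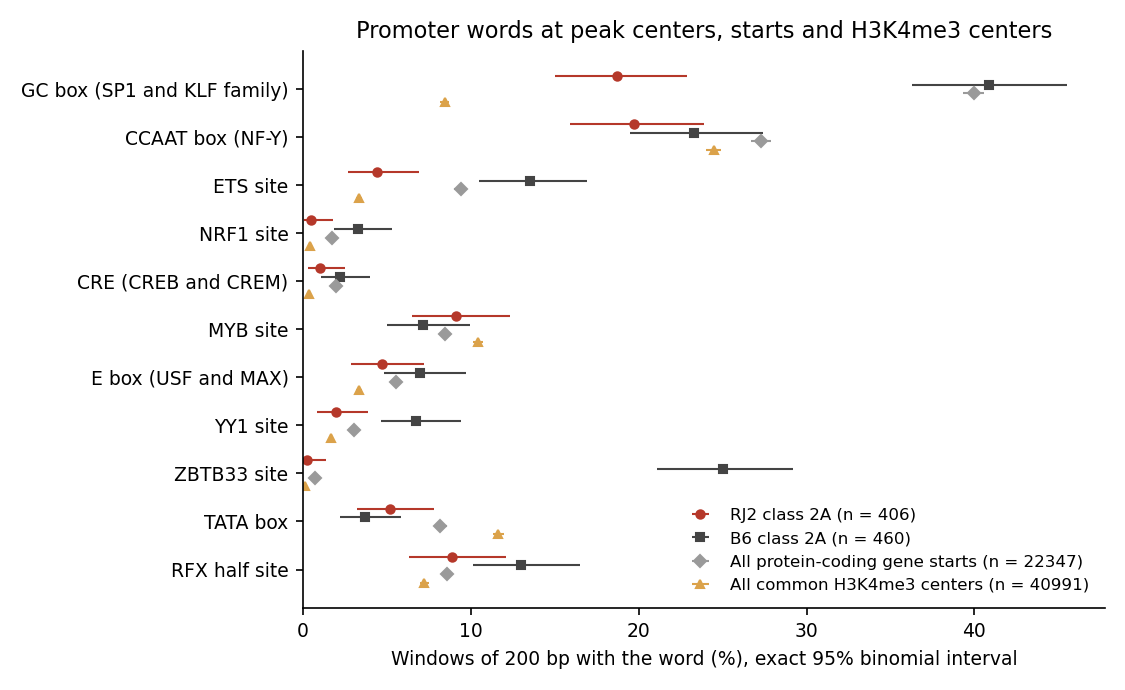
Share of windows of 200 bp that hold each promoter word (horizontal axis, percent, with exact 95% binomial intervals) for RJ2 class 2A peaks, B6 class 2A peaks, protein-coding gene starts and centers of common H3K4me3 intervals (symbols), with 1 word per row. The ZBTB33 site stands at 0.246% in RJ2 class 2A, and in B6 class 2A its interval runs from 21.1 to 29.2%.

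B6 class 2A had 460 of 2601 peaks chosen by the same rule. They were at promoters in 88.5% of cases and CpG-rich in 67.0%, against 66.7% and 21.4% in RJ2, and 3.48% held a PRDM9 Cst hit. Before depositing the lists, the authors removed PRDM9 peaks shared by both strains, so 0 class 2A peaks overlapped a B6 PRDM9 peak by construction, and sites bound alike in both strains are missing. Within this limit, 3 of 406 RJ2 class 2A peaks (0.739%) shared a common H3K4me3 interval with a B6 class 2A peak. The share of all 41014 common intervals that hold a B6 class 2A peak was not counted. At Arid3a (chr10:79388934-79389682) the B6 peak lay 545 bp away, at Ankrd39 (chr1:36603296-36603829) 222 bp, and near Wif1 (chr10:120562802-120563272) 865 bp. Of the 271 promoter peaks, 7 (2.58%) lay within 1 kb of a start of a gene that also had a B6 class 2A peak. Among them were those of Clptm1, Rabggtb, Adnp and Uba6. Over all protein-coding genes, 484 of 22208 (2.18%) had a B6 class 2A peak. That share counts genes and not peaks. It also includes genes without common H3K4me3, which lay at a start of only 8916 of them. It is thus no like base for the 2.58%, and the overlap was not tested.

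Other lists met few class 2A peaks. The same overlaps were not counted over all RJ2 PRDM9 peaks or in the other classes, so low counts cannot be called particular to class 2A. The Spo11 KO list holds 1070 intervals and comes from mice with Prdm9 Dom2. The only one over a Spo11 KO PRDM9 peak was in an intron of Pfkfb1 (chrX:147023097-147023613), 556 bp downstream of the start. B6 DMC1 intervals overlapped 4, and their central 400 bp overlapped the peak of Mink1 (chr11:70423562-70424105), a kinase gene, with a PRDM9 Cst score of 10.4 bits, and an intergenic peak nearest to Gm9966 (chr7:103139816-103140290), with a hit of 13.9 bits. The 1 peak over the flank of an RJ2 DMC1 interval was that of Pfkfb4 (chr9:108894959-108895653), which held a hit of 12.1 bits and lay 1.11 kb from the center of the DMC1 interval. The 1 peak over B6-specific H3K4me3 was at AI837181, and 0 met RJ2-specific H3K4me3. As the rule asks for cover by common H3K4me3, selection limited both of these counts, and they are a description.

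The distance from class 2A peaks to breaks had a median of 42.7 kb to the nearest RJ2 DMC1 center, against 46.8 kb in class 2B. It was 42.7 kb for the 65 peaks with a PRDM9 Cst hit and 42.6 kb for the 341 without. Among all class 2A peaks, 58 (14.3%) had a DMC1 center within 10 kb, 5 within 2 kb and 0 within 1 kb. As DMC1 chose the class, these distances carry no test.

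Class 2A peaks stood low in the deposited list, whose order is not by genome position. The authors' methods rank peaks by p-value to choose the final set, but do not state that the deposited list keeps this rank. The median position of class 2A peaks was 6546 of 10121, the first at 860, and 1 was among the first 1012 positions. The medians were 3530 in class 1b and 7475 in class 2B. Width falls along the list (Spearman's rho -0.755 over all 10121 peaks and -0.702 over the 406), so both measures describe much the same order. The first 5 peaks were those of Nuf2, Hdhd3, 4933436C20Rik, Alad and Gas2, at positions 860 to 1183, and 4 of them held no PRDM9 Cst hit.

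**Figure D5:**
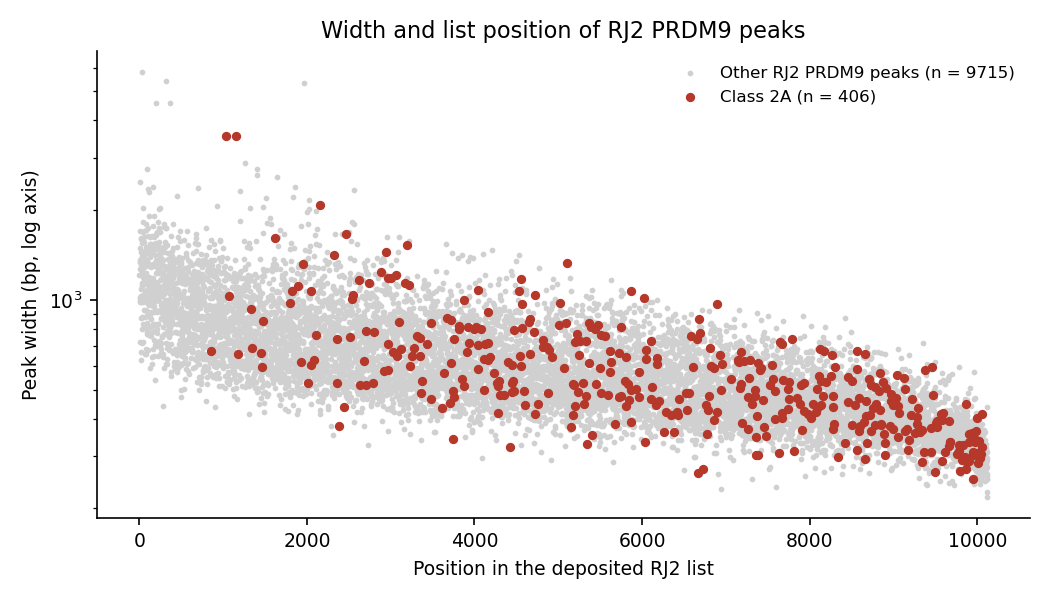
Width of each RJ2 PRDM9 peak in bp (vertical axis, log scale) by its position in the deposited list (horizontal axis), with the 406 class 2A peaks in red over the other 9715 in gray. Class 2A peaks begin at position 860 and crowd toward the end of the list, and the 2 widest, of 3552 and 3537 bp, stand apart from the rest of their class.

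Of the 5 widest intervals, 3 had another class 2A peak within 20 kb. The 2 widest were those of Hdhd3, a hydrolase gene (chr4:62161868-62165419, 3552 bp), and of Alad, an enzyme of heme synthesis (chr4:62178606-62182142, 3537 bp), whose centers lie 16.7 kb apart. They were covered by common H3K4me3 over 61.5% and 43.4% and lay 13.0 and 3.71 kb from a DMC1 center, with no PRDM9 Cst hit (3.31 and 9.58 bits). The third, of 2083 bp (chr17:27467452-27469534), is intergenic and belongs to a run of 5 distal class 2A peaks upstream of Gm10505, a processed transcript, between 10.9 and 42.6 kb from its start. The others of the run were 1448, 1209, 536 and 584 bp wide, and only the last held a hit. Chromosome 17 carries the introduced segment of RJ2, whose bounds on mm9 are not given in the sources used here, and it held 23 class 2A peaks. Next came Tssk6, a kinase of spermatids (chr8:72425251-72426918, 1668 bp, 2 bp from the start), and 2310014H01Rik on chromosome 17 (1614 bp). In all, 27 class 2A peaks (6.65%) had another within 20 kb and 12 within 2 kb, such as the pairs at Csrnp1, Sertad2, Atp6v0a1 and Socs1.

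Class 2A peaks were found on all autosomes and on the X chromosome. As a share of the PRDM9 peaks of a chromosome they ranged from 2.49% on chromosome 13 (11 of 441) to 7.21% on chromosome 7 (41 of 569, interval 5.22 to 9.65%). Chromosome 2 had the highest number, 47 of 871 peaks (5.40%), and the X chromosome had 4 of 158 (2.53%). Per 1000 common H3K4me3 intervals, chromosome 7 had 16.5, chromosome 2 had 15.7 and the X chromosome 2.81, against 9.90 over the genome. These chromosomes were picked after their values were seen and were not tested.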

How the data were processed

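The authors mapped reads to mm9 with Bowtie2 (PRDM9) or BWA (DMC1), called these peaks with MACS2, selected those reproducible between replicates, pooled the replicates and removed PRDM9 peaks shared by B6 and RJ2. For H3K4me3 their methods name both Bowtie and Bowtie2, and peaks were called with an earlier MACS version on 3 sets of reads and intersected. Their 9 deposited lists hold other values than reads, namely interval positions without scores, and each was used as it is. They rest on 22 of the 32 libraries; H3K36me3 was not analyzed here. Members, gene lists and tests were chosen with earlier results of these data known.

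Sequences came from NCBIM37, the same build as mm9, and starts, exons and genes from GENCODE vM1. The methods remove PRDM9 peaks over Prdm9 KO peaks, yet 252 remain in the deposited RJ2 list; they were left out of every class here. The matrix was learned in 3 rounds from 3512 class 1 peaks and 7019 flanking windows. Shares carry exact binomial (Clopper-Pearson) 95% intervals for counting error alone, and differences Newcombe intervals. Fisher's exact tests were two-sided, with Benjamini-Hochberg adjustment over 7 tests and a threshold of 0.05. Named peaks are the 5 first listed, the 5 widest, those at genes of the lists, the 5 highest matrix scores, up to 3 CTCF cores nearest the center, up to 5 beside B6 class 2A peaks, up to 5 over each other list, and 3 inside and outside each threshold. Other peaks named, the runs and pairs of neighbors, Crtc1 and the chromosomes were chosen after their values were seen. The steps were tested on simulated data. Python 3.11.15, numpy, scipy, statsmodels, pysam and matplotlib were used.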

Additional observations from a re-analysis of the deposited data

How the results depend on the processing

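Alternatives changed the part of the DMC1 interval, the H3K4me3 cover, the Prdm9 KO filter, the list, the window, the matrix threshold, the promoter distance and the CpG limits, and 46 of 57 values kept their direction and their side of the threshold (for the number of peaks, their size). Every comparison of promoter share (39.1 to 48.2 points), CpG-rich share (15.3 to 29.3 points) and PRDM9 Cst share against class 1 (-40.8 to -27.2 points) did so. With the first 5060 positions of the list, class 2A had 134 peaks in place of 406, the PRDM9 Cst difference from class 2B was 12.4 points and no longer passed (fewer peaks were tested), and the promoter against distal difference turned to 7.41 points. The latter was also 1.45 points with the matrix threshold at 1% of flanks and 0.296 points with a promoter distance of 500 bp, and it passed the threshold at -9.31 points in the central 400 bp. The CTCF difference between promoter and distal peaks passed with whole DMC1 intervals (-2.24 points), with H3K4me3 cover of at least 50% (-2.63 points), with peaks over the Prdm9 KO kept (-2.11 points) and in the central 400 bp (-2.96 points). With 1 mismatch allowed in the CTCF core, an alternative chosen after seeing the data, the difference from class 2B turned to -0.937 points. The cause of these changes was not tested. No paired analysis was possible because the lists pool the replicates, and for the same reason no replicate could be left out. The lists give no score or depth per peak, and list position was not tested against signal.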
